A study of Mus musculus with 4 samples.

Results

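*Spic*, *Vcam1* and *Il18bp*, 3 of the 27998 genes counted, were followed through CD45+ cells of injured mouse muscle, from libraries labelled control and KO for *Bach1*. They were chosen by their differences between the KO and control libraries in earlier results of these same data, so their differences between genotypes are described here without a test. The question asked was which cells carried the 3 transcripts, whether these were the same cells, and how this differed by genotype and by day. On GRCm38, *Spic* (ENSMUSG00000004359) lies on chromosome 10 from 88674772 to 88685015, *Vcam1* (ENSMUSG00000027962) on chromosome 3 from 116109949 to 116129688 and *Il18bp* (ENSMUSG00000070427) on chromosome 7 from 102014885 to 102018690. All 3 are on the minus strand.

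All animals were male C57BL/6 mice of 8-12 weeks whose tibialis anterior, the shin muscle, was injured with cardiotoxin, a snake toxin that kills muscle fibres. Controls were Bach1 fl/fl littermates and the KO carried Lyz2-Cre in addition, so that *Bach1*, which encodes a heme-sensing repressor, was deleted in cells that have expressed *Lyz2*, mainly monocytes, macrophages and neutrophils. CD45+ cells were enriched with magnetic beads at 2 or 4 days post injury (dpi2 and dpi4). There was 1 library of each genotype at each day, made from individual mice by the study's account (n = 1 per group). Differences between libraries therefore have no replicate check, and genotype cannot be told apart from library. The KO also had Cre and, as given below, little *Lyz2* transcript, so deletion of *Bach1* cannot be told apart from these. All intervals are 95% and cover counting error only.

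SPI-C, the product of *Spic*, is a transcription factor of the PU.1 (ETS) family. It is known for splenic red pulp and bone marrow macrophages, which clear aged red cells and recycle their iron. Heme triggers degradation of BACH1 and thereby releases *Spic*, together with *Hmox1* (heme oxygenase) and *Slc40a1* (the iron exporter ferroportin). VCAM1 is an adhesion molecule that binds integrin α4β1. It is best known from inflamed endothelium, is carried by muscle stem cells and fibroblasts, and is a surface marker of red pulp macrophages. IL-18BP is a secreted protein that binds the cytokine IL-18 and keeps it from its receptor, and interferon γ is known to induce its gene.

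The stretch upstream of the transcription start is shown for the 2 of the 3 genes that matched the RefSeq promoter table (GRCm38.p6), because ETS factors, to which SPI-C itself belongs, recognise the core GGAAGT. Capitals mark that core on either strand, and each sequence runs 5′ to 3′ on the gene's strand up to the base before the RefSeq start.
*Spic*, chr10:88683024-88683273, minus strand: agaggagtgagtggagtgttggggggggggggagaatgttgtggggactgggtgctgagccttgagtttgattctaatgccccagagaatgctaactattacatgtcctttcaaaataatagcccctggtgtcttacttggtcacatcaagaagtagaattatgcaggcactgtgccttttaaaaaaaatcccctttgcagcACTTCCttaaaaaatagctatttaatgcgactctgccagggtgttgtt
*Il18bp*, chr7:102018233-102018482, minus strand: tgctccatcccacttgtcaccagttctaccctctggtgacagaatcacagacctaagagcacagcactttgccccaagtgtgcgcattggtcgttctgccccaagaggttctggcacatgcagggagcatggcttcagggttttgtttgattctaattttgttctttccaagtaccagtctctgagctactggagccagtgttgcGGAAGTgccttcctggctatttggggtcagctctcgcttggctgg

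Each window held 1 match of the core. In *Spic* it stood on the opposite strand, 48 to 43 bases before the start, and in *Il18bp* on the gene's own strand, 45 to 40 bases before it. Over all 32851 windows of 250 bases in the table, 19.7% held the core on at least 1 strand, so a match is common. The AP-1 and MARE core TGANTCA (in 6.75% of windows), the antioxidant response element TGACNNNGC (10.2%) and the interferon-stimulated element GAAANNGAA (7.13%), all searched on both strands, were not found in these letters in either window. Both windows lie inside the span of the gene given above, because the RefSeq start is downstream of the outermost annotated start. *Vcam1* was not in the table.

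The libraries held 4177 to 6602 barcodes and 57010520 to 80228489 UMIs, and 3433 to 5721 cells per library passed the filters. Any pair of libraries shared 2 to 14 barcodes. *Bach1* counts of 187 to 217 CPM (UMIs scaled to a total of 1000000 per library or class) did not separate the labels, but tags at the 3′ end lie outside the deleted exon and check nothing. *Lyz2*, the locus that carries Cre, did: 9388 and 15845 CPM in the control libraries and 17.5 and 21.6 CPM in those labelled KO. Cell classes were rebuilt from marker genes, since no annotation was used, and "macrophage" or "monocyte" stands for macrophage-like or monocyte-like cells throughout. *Ptprc*, which encodes CD45, was at 530 to 635 CPM in each library.

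Over all barcodes *Spic* was at 3.48 CPM in the control dpi2 library, 96.6 in the KO dpi2 library, 12.2 in the control dpi4 library and 194.8 in the KO dpi4 library. *Vcam1* was at 5.27, 9.24, 31.6 and 104.4 CPM in the same order. *Il18bp* was at 17.7, 9.30, 61.9 and 167.2 CPM. The labelled KO dpi4 library was thus the highest for all 3 transcripts, and *Il18bp* was the only one of the 3 that was lower in the KO than in the control library at dpi2.

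Macrophages carried most of these transcripts at dpi4. Of the UMIs in kept cells of the KO dpi4 library, they held 94.5% for *Spic*, 89.3% for *Vcam1* and 93.4% for *Il18bp*. In the control dpi4 library, where they were 75.3% of kept cells, they held 86.9%, 59.9% and 85.8%, which for *Vcam1* is less than their share of cells. Cluster 16, with 238 cells in that library and described below, also carried *Vcam1* and was left out of the macrophages. At dpi2 the picture differed by gene. In the KO dpi2 library 52.2% of the *Spic* UMIs were in monocytes and 46.3% in macrophages, whereas 82.4% of the *Vcam1* and 67.6% of the *Il18bp* UMIs were in macrophages. In the control dpi2 library monocytes held 70.0% of the few *Spic* UMIs, 180 against 65 in macrophages.

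**Figure D1:**
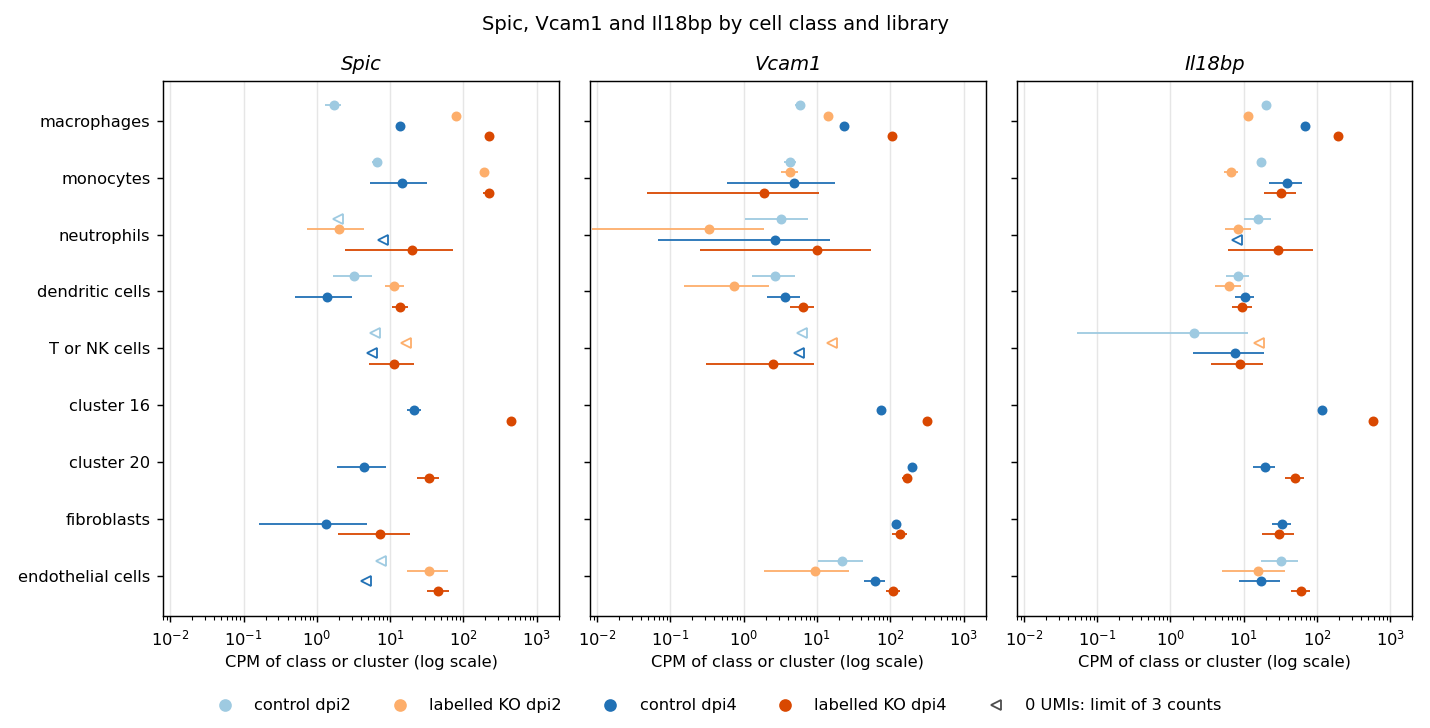
Level of each gene (CPM of the UMIs summed over a class or cluster, log axis) by cell class and library, with exact Poisson 95% intervals, for classes or clusters with at least 13 cells in a library. Open triangles mark 0 UMIs, drawn at the limit that a count of 0 allows (3 counts). *Spic* stood high in macrophages and monocytes of the KO libraries and had 0 to 9 UMIs per library in neutrophils and in T or NK cells, and *Vcam1* in macrophages of the KO dpi4 library (107 CPM) was close to that in endothelial cells (109 CPM) and fibroblasts (135 CPM) of the same library.

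Of the 3, *Spic* differed most between the genotypes. In macrophages it was at 1.69 CPM (95% interval 1.31 to 2.16) in the control dpi2 library and at 78.5 (75.4 to 81.8) in the KO dpi2 library, a ratio of 46.3 (36.2 to 60.3). At dpi4 it was at 13.5 (12.6 to 14.5) and 222 (218 to 227), a ratio of 16.5 (15.3 to 17.7). It ranked 3rd from the top of 11118 genes at dpi2 and 2nd of 11994 genes at dpi4. In control macrophages the level was 7.98 (6.19 to 10.4) times higher at dpi4 than at dpi2, and in KO macrophages 2.83 (2.71 to 2.96) times. With monocytes and macrophages pooled, the log2 ratio of KO to control at dpi2 was 4.92 in place of 5.53, and that of the days in the control was 1.85 in place of 3.0.

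The share of cells told the same order. With each macrophage thinned to 2000 UMIs, a *Spic* UMI was found in 0.464% of cells (0.213 to 0.879) in the control dpi2 library, 13.8% (11.8 to 16) in the KO dpi2 library, 2.55% (2.02 to 3.17) in the control dpi4 library and 32.0% (30.2 to 33.8) in the KO dpi4 library. Without thinning, the shares were 2.44%, 49.3%, 14.1% and 72.8%, at median depths of 17998, 26182, 16174 and 15231 UMIs. The transcript was spread over many cells of the KO dpi4 library: the macrophages with a UMI had a median of 4 and a highest count of 40, and the tenth of macrophages with the most held 38.6% of its UMIs.

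Monocytes at dpi2 already carried *Spic* in the KO library at a higher level than macrophages did. It was at 6.69 CPM (5.75 to 7.74) in 2540 monocytes of the control library and at 190 (182 to 197) in 980 monocytes of the KO library, a ratio of 28.3 (24.4 to 33.2). The log2 ratio, 4.83, was 6.03 with monocytes taken from separate clusterings of the libraries. The counts per cell were uneven. In the KO library 567 of these monocytes had no *Spic* UMI and 168 had over 5, with a highest count of 50. In the control library 2471 had none and 7 had over 5, with a highest count of 14. At dpi4 the class held 44 and 63 monocytes, with 14.5 CPM (5.34 to 31.6) and 221 CPM (183 to 265). That count depends on the clustering, since separate clusterings of the libraries named 348 control and 42 KO cells as monocytes at dpi4.

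Other leukocytes had little *Spic*. Dendritic cells were at 3.26 and 11.5 CPM at dpi2 and at 1.37 and 13.7 CPM at dpi4, control before KO, ratios of 3.52 (1.84 to 7.30) and 10.0 (4.36 to 28.4). Neutrophils, in which Lyz2-Cre is also active, had 0 *Spic* UMIs in the control dpi2 library (631 cells) and 6 in the KO dpi2 library (824 cells, 2.02 CPM). In the same neutrophils *Hmox1*, a gene that BACH1 is known to repress, was at 111 and 5609 CPM. Cluster 11, closest to neutrophils but shallow and left without a name, was not counted with them. T or NK cells served as the background, as they should lack the transcript. They had 0 *Spic* UMIs in the first 3 libraries (36 to 103 cells) and 9 in 132 cells of the KO dpi4 library, which is 1.56% of thinned cells (0.190 to 5.53) at a median depth of 4846 UMIs. The level in KO dpi4 dendritic cells, 2.16% of thinned cells (0.938 to 4.22), was not separable from that background. Dendritic shares in the first 3 libraries, 0.658%, 0.877% and 0.593%, lay below what 0 UMIs in T or NK cells allow (2.97%, 8.33% and 4.05%). The dendritic cell ratios carry that limit.

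*Vcam1* in macrophages was at 5.79 CPM (5.05 to 6.60) in the control dpi2 library, 14.0 (12.7 to 15.4) in the KO dpi2 library, 23.5 (22.3 to 24.8) in the control dpi4 library and 107 (104 to 110) in the KO dpi4 library. The KO exceeded the control 2.42-fold (2.05 to 2.86) on dpi2 and 4.54-fold (4.28 to 4.82) on dpi4. From dpi2 to dpi4 the level was 4.07 times higher (3.53 to 4.71) in the control and 7.64 times higher (6.91 to 8.46) in the KO. Monocytes at dpi2, unlike for *Spic*, stood at 4.27 and 4.30 CPM, a ratio of 1.01 (0.724 to 1.39).

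In the KO libraries *Vcam1* was found in fewer macrophages than *Spic*. In the thinned macrophages it was found in 0.877% (0.512 to 1.40), 1.60% (0.937 to 2.56), 4.25% (3.56 to 5.03) and 13.5% (12.2 to 14.9), in the order of the libraries above, and without thinning in 3.19%, 9.44%, 13% and 29.9%. The tenth of KO dpi4 macrophages with the most held 76.0% of its UMIs, and a single macrophage held up to 71. T or NK cells had 0, 0, 0 and 2 UMIs. Their 101, 36 and 74 thinned cells without a UMI of *Spic* or *Vcam1* allow shares of up to 2.97%, 8.33% and 4.05% in the first 3 libraries. The control dpi2 and control dpi4 *Spic* shares and the control dpi2 and KO dpi2 *Vcam1* shares lie below these limits, and the interval of the control dpi4 *Vcam1* share reaches its limit. By the same limits the thinned dpi2 monocyte shares of *Spic* in the control (0.954%), of *Vcam1* in the control and the KO (0.755% and 1.02%) and of *Il18bp* in both (2.94% and 1.54%) also lie below. All of these were not separable from background at this depth, and the ratios that rest on them carry that limit.

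Some *Vcam1* came from cells that are not leukocytes and remained after bead enrichment. At dpi4 fibroblasts were at 121 CPM (104 to 140) in 40 control cells and 135 (106 to 169) in 15 KO cells, and endothelial cells at 61.8 (43.9 to 84.5) and 109 (86.6 to 134) in 26 and 35 cells. Cluster 20, led by *Igfbp5*, *Peg3* and *Col1a2* and left without a name because its leading genes mixed classes, was at 197 CPM (177 to 218) in 107 control cells and 171 (146 to 199) in 30 KO cells at dpi4. Of the genes of muscle stem cells it carried *Pax7* at 235 and 150 CPM, *Cdh15* at 291 and 307 CPM and *Myod1* at 20.9 and 82.3 CPM, the last in 10 and 7 cells. *Col1a1*, a collagen gene of fibroblasts, was at 847 and 180 CPM there. Clusters without a name held 15.7% of the control dpi4 *Vcam1* UMIs in kept cells and 3.01% of those of the KO dpi4 library. These cells were not counted as macrophages.

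Within macrophages the markers of those other types were low. The summed level of the 5 fibroblast markers was 1.37 to 23.5 CPM over the 4 libraries, that of the 5 endothelial markers 8.67 to 13.8 CPM, and that of the 4 muscle stem cell markers 0 to 1.69 CPM. In the KO dpi4 library, macrophages with and without a *Vcam1* UMI had 18 and 13.5 CPM of fibroblast markers, 11.3 and 9.26 CPM of endothelial markers and 2.63 and 1.66 CPM of muscle stem cell markers. Their part in the *Vcam1* difference was not tested.

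*Il18bp* changed its order between the days. In dpi2 macrophages it was at 19.9 CPM (18.5 to 21.4) in the control library and 11.4 (10.2 to 12.7) in the KO library, a ratio of 0.571 (0.501 to 0.649). In dpi4 macrophages it was at 68.2 (66.1 to 70.4) and 192 (188 to 196), a ratio of 2.82 (2.72 to 2.93). The KO level was 16.9 times higher (15.2 to 18.9) at dpi4 than at dpi2 and the control level 3.42 times (3.17 to 3.70). In dpi2 monocytes the KO was lower as well, 6.74 CPM (5.44 to 8.24) against 17.4 (15.8 to 19.0), a ratio of 0.388 (0.308 to 0.485). The monocytes of the libraries were different mixtures. When monocytes and macrophages were clustered again, sub-cluster 1 was 50.5% of the control and 19.0% of the KO monocytes and sub-cluster 5 was 17.5% and 48.6%, and the ratio within each of the 3 main monocyte sub-clusters, given below, was nearer to 1.

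In the thinned macrophages *Il18bp* was found in 4.07% (3.24 to 5.05) of control dpi2 cells, 1.89% (1.16 to 2.90) of KO dpi2 cells, 10.6% (9.53 to 11.7) of control dpi4 cells and 24.9% (23.2 to 26.6) of KO dpi4 cells. Without thinning the shares were 22.9%, 17.3%, 42.1% and 60.6%. T or NK cells had 1, 0, 4 and 7 UMIs, and in the KO dpi4 library 2.34% of thinned cells had 1 (0.486 to 6.70). In the KO dpi2 library 0 of 36 thinned T or NK cells had a UMI, which allows a share of up to 8.33%, so the *Il18bp* share of KO dpi2 macrophages was not separable from background at this depth. Dendritic cells were at 8.41, 6.23, 10.2 and 9.52 CPM, with ratios of KO to control of 0.741 (0.419 to 1.30) and 0.929 (0.597 to 1.44).

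To set these ratios beside all genes, a gene was counted as past a size rule when its 2 levels differed at least 2-fold, the interval of the ratio left out 1 and the pair of libraries held at least 50 of its UMIs. In macrophages at dpi2, 250 of 11118 genes (2.25%) were higher in the KO by this rule and 238 (2.14%) lower. *Spic* and *Vcam1* were among the higher, and *Il18bp*, at 0.571, was past it in neither direction. At dpi4, 118 of 11994 genes (0.984%) were higher, all 3 members among them, and 168 (1.40%) lower. In monocytes at dpi2, 177 of 9992 genes (1.77%) were higher, with *Spic*, and 265 (2.65%) lower, with *Il18bp*. The members were chosen on this contrast, so nothing is read from these counts. From dpi2 to dpi4 in macrophages all 3 were past the rule upwards in the control, where 9.81% of 11802 genes were, and in the KO, where 8.84% of 11453 were.

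The macrophages of the 4 libraries were not the same mixture. Monocytes and macrophages were clustered together again, without the 3 members or the gene lists among the genes used, which gave 14 sub-clusters called here by number and leading genes. Sub-cluster 2 (*Spp1*, *Fabp5*, *Cd36*) held 57.5% of control and 13.7% of KO macrophages at dpi2, and sub-cluster 10 (*Hmox1*, *Pf4*, *Cxcl2*) held 1.75% and 43.0%. At dpi4 sub-cluster 8 (*Hmox1*, *Slc40a1*, *Sepp1*) held 1.56% of control and 27.9% of KO macrophages. Class-wide ratios therefore compare different mixtures, and the same ratios are given within sub-clusters.

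*Spic* was higher in the KO in each sub-cluster with at least 20 cells in both libraries. At dpi2 the ratio was 60.7 (43.4 to 87.4) in sub-cluster 1 and 52.5 (31.2 to 96.4) in sub-cluster 5, both of monocytes (*Plac8*, *Ly6c2* and *Il1b*, *Chil3* leading), 13.7 (11.4 to 16.7) in sub-cluster 4 (*Thbs1*, *Ccl2*), 27.4 (19.2 to 40.1) in sub-cluster 2 and 40.9 (25 to 72.1) in sub-cluster 6 (*Pf4*, *Ccl7*, *Mrc1*). At dpi4 it was 11.7 (10.3 to 13.4) in sub-cluster 0 (*Apoe*, *Cd74*, *H2-Aa*), 14.8 (12.5 to 17.8) in sub-cluster 3 (*Apoe*, *C1qa*), 13.9 (11.7 to 16.8) in sub-cluster 7 (*Gpnmb*, *Fabp5*), 23.7 (18.7 to 30.4) in sub-cluster 9 (*Sepp1*, *C1qa*) and 5.15 (3.99 to 6.76) in sub-cluster 8. The last had the highest level in either library, 66.6 CPM in 49 control cells and 343 in 737 KO cells.

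*Vcam1* was more uneven. At dpi4 the ratio was 7.88 (6.49 to 9.63) in sub-cluster 3, from 14.5 to 114 CPM, and 7.28 (6.19 to 8.60) in sub-cluster 9, from 25.1 to 183 CPM. In sub-cluster 0, whose leading genes include *Cd74* and *H2-Aa* of antigen presentation, it was 1.24 (1.07 to 1.44), from 35.0 to 43.5 CPM. In sub-cluster 8 it was 1.78 (1.47 to 2.16), from 125 to 223 CPM, and the 49 control cells there stood above the 23.5 CPM of all control macrophages at that day. At dpi2 it was 3.32 (2.5 to 4.46) in sub-cluster 6 and 1.73 (1.17 to 2.52) in sub-cluster 2. The intervals in sub-clusters 1, 4, 5, 10 and 11 (ratios 1.19, 0.565, 1.64, 2.12 and 0.395) held 1.

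*Il18bp* at dpi4 was higher in the KO in sub-cluster 3 (2.63, 2.40 to 2.88), 9 (2.32, 2.08 to 2.60), 7 (1.70, 1.58 to 1.84) and 8 (2.91, 2.39 to 3.58), and by 1.21 (1.07 to 1.36) in sub-cluster 0. At dpi2 the KO level was lower in sub-cluster 6, at 29.4 and 10.1 CPM with a ratio of 0.342 (0.268 to 0.434), in the monocyte sub-clusters 1 (0.544, 0.360 to 0.793) and 4 (0.529, 0.348 to 0.783), and in sub-cluster 11 (*Stmn1*, *Tubb5*), with 0 UMIs in 30 cells against 12 in 98. It was not seen in sub-cluster 2, at 18.7 and 23.2 CPM with a ratio of 1.24 (0.990 to 1.55). In the monocyte sub-cluster 5 the ratio was 0.795 (0.403 to 1.60), at 4.37 and 3.47 CPM. Sub-cluster 10, the largest among KO macrophages at that day, held 144 *Il18bp* UMIs at 10.1 CPM there against 11.8 CPM in only 37 control cells, so the class-wide ratio also compares different mixtures.

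**Figure D2:**
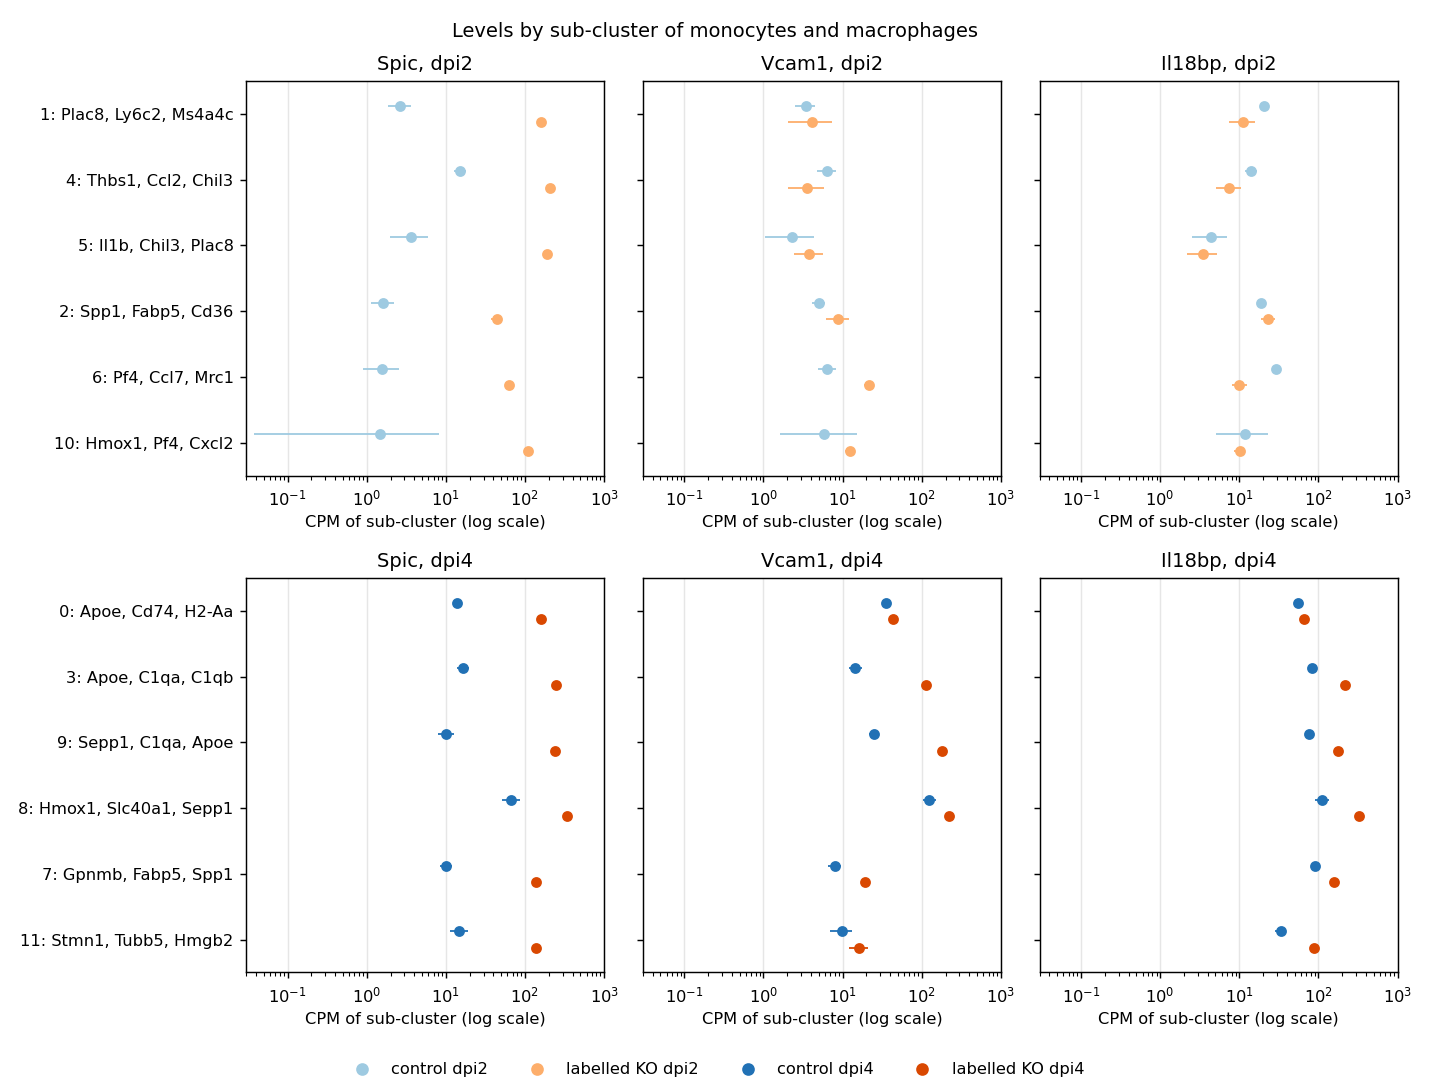
Level of each gene (CPM of a sub-cluster's summed UMIs, log axis) in the sub-clusters of monocytes and macrophages at dpi2 and dpi4, control and KO libraries, with exact Poisson 95% intervals. For *Spic* the KO lies to the right in every sub-cluster drawn, whereas *Vcam1* and *Il18bp* of sub-cluster 0 at dpi4 nearly coincide (43.5 and 35.0 CPM, 66.3 and 54.8 CPM) and *Il18bp* of sub-cluster 6 at dpi2 lies to the left in the KO (10.1 and 29.4 CPM).

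Sub-cluster 8 held 39.4% of the *Spic*, 50.4% of the *Vcam1* and 42.5% of the *Il18bp* UMIs in kept cells of the KO dpi4 library. It was not the sole source: sub-clusters 3 and 9 of that library had *Spic* at 248 and 241 CPM, *Vcam1* at 114 and 183 CPM and *Il18bp* at 217 and 179 CPM.

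Whether the transcripts sat in the same cells was asked within each library, with cells thinned to 5000 UMIs so that depth did not set the answer. In the KO dpi4 library *Vcam1* was found in 29.8% (27.3 to 32.4) of the 1296 macrophages with a *Spic* UMI and in 12.7% (10.8 to 14.7) of the 1160 without. *Il18bp* was found in 50% (47.2 to 52.8) of the first and 31.7% (29.1 to 34.5) of the second. All 3 were found together in 229 of 2456 cells (9.32%), where the product of the 3 shares would give 116, and none in 29.1%. That product is over sub-clusters of unequal level: within them all 3 were found in 136 cells against 111 by the product in sub-cluster 8, 44 against 25.8 in sub-cluster 3, 30 against 19.8 in sub-cluster 9, 9 against 3.69 in sub-cluster 7, 8 against 2.52 in sub-cluster 0 and 2 against 0.750 in sub-cluster 11. The cells with and without *Spic* had similar depth before thinning, with medians of 15705 and 16134 UMIs.

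In control dpi4 macrophages *Vcam1* showed the same order, in 17.3% (11.7 to 24.2) of the 156 cells with *Spic* and 6.49% (5.61 to 7.47) of the others. For *Il18bp* the intervals overlapped, at 26.3% (19.6 to 33.9) and 21.2% (19.7 to 22.7). At dpi2 the KO macrophages with and without *Spic* had *Vcam1* in 4.84% (2.52 to 8.30) and 3.30% (2.16 to 4.79) and *Il18bp* in 6.85% (4.04 to 10.7) and 3.55% (2.37 to 5.09), and both pairs of intervals overlapped. Only 23 control dpi2 macrophages had *Spic* at this depth.

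**Figure D3:**
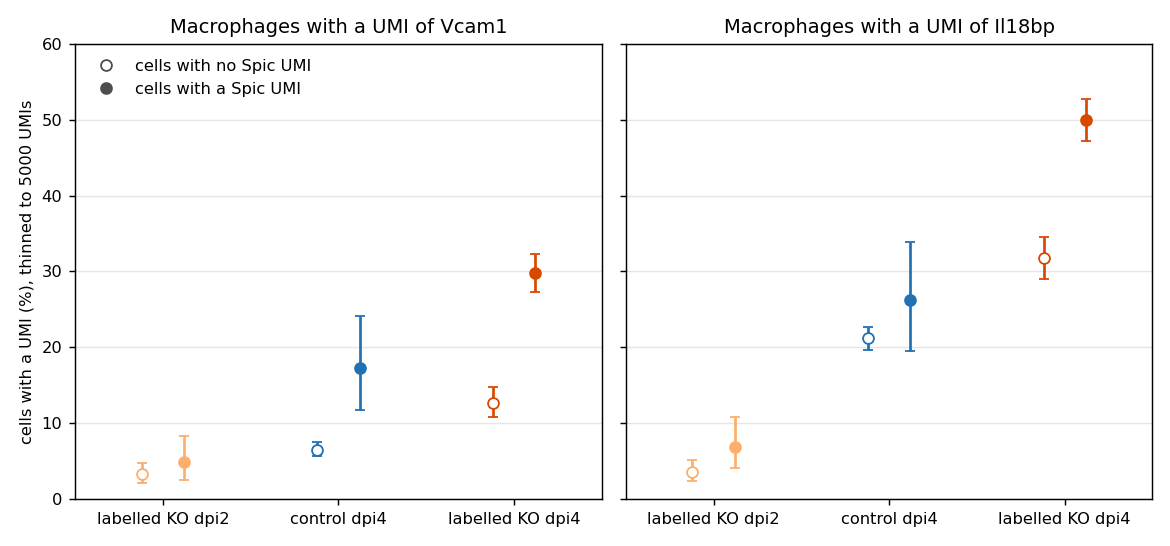
Share of macrophages with a UMI of *Vcam1* or *Il18bp* (percent of cells thinned to 5000 UMIs, exact 95% intervals), for cells with and without a *Spic* UMI, in 3 libraries; the control dpi2 library, with 23 such cells, is left out. The clearest gaps are those of the KO dpi4 library, 29.8% against 12.7% for *Vcam1* and 50% against 31.7% for *Il18bp*.

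The relation was also seen inside sub-clusters of the KO dpi4 library. *Vcam1* was in 41.9% (37.6 to 46.3) of cells with and 27.4% (21.6 to 33.9) of cells without *Spic* in sub-cluster 8, in 28.6% (23.4 to 34.2) and 13.3% (8.90 to 18.9) in sub-cluster 3, in 38.9% (30.9 to 47.4) and 19.9% (13.6 to 27.4) in sub-cluster 9, and in 14.7% (9.33 to 21.6) and 5.06% (2.64 to 8.68) in sub-cluster 0. *Il18bp* was in 48.2% (42.2 to 54.2) and 31.3% (24.8 to 38.3) in sub-cluster 3, in 47.7% (39.6 to 55.9) and 31.7% (25.8 to 38.0) in sub-cluster 7 and in 55.6% (47.1 to 63.8) and 37.6% (29.6 to 46.1) in sub-cluster 9. In sub-cluster 8 the *Il18bp* shares of 60.3% and 53.0% had overlapping intervals, as did those of *Vcam1* in sub-cluster 7 and of *Il18bp* in sub-cluster 0.

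The amount of *Spic* went with the amount of the others over all KO dpi4 macrophages. These pool sub-clusters of unequal level, and the part of that mixture in the means below was not tested. Cells with 0, 1, 2 and at least 3 *Spic* UMIs (1160, 567, 330 and 399 cells) had on average 0.336, 0.757, 1.02 and 1.48 *Vcam1* UMIs per 5000. For *Il18bp* the means were 0.673, 1.08, 1.12 and 1.72. *Slc40a1* was at 2.44, 4.76, 5.26 and 6.40, while *Hmox1* was at 29.6, 38.1, 38.2 and 37.7, level from 1 *Spic* UMI upwards. *C1qa*, a general macrophage gene, was at 13.8, 16.5, 15.5 and 16.1.

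Monocytes of the KO dpi2 library carried much *Spic* and little of the others. Of 955 thinned cells, 316 had *Spic*, 10 had *Vcam1* (5 of them with *Spic*) and 24 had *Il18bp* (11 with *Spic*). Cells with 0, 1, 2 and at least 3 *Spic* UMIs (639, 116, 68 and 132 cells) had *Hmox1* at 21.6, 47.2, 47.1 and 56.5 UMIs per 5000. *Vcam1* was at 0.0125 (0.00541 to 0.0247), 0.121 (0.0660 to 0.202) and 0.0294 in the first 3 of these bins and had 0 UMIs in the 132 cells with most *Spic*, which allows up to 0.0227 per cell. The *Vcam1* UMIs of all bins with *Spic* came from 5 cells. *Il18bp* was at 0.0235, 0.0517, 0.0588 and 0.0303. *Slc40a1*, at 0.0610, 0.0948, 0.0441 and 0.159, was also far below its level in dpi4 macrophages.

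**Figure D4:**
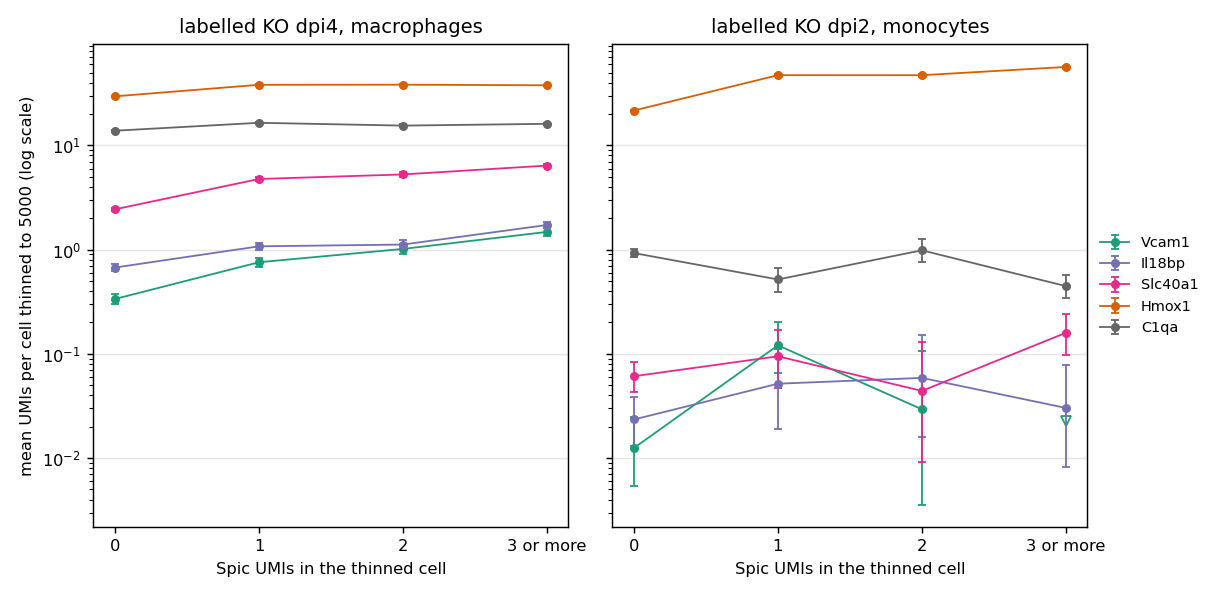
Mean UMIs per cell thinned to 5000 UMIs (log axis, exact Poisson 95% intervals) by the number of *Spic* UMIs in the cell, for macrophages of the KO dpi4 library and monocytes of the KO dpi2 library. *Vcam1* climbs from 0.336 to 1.48 and *Il18bp* from 0.673 to 1.72 on the left; on the right *Hmox1* goes from 21.6 to 56.5 while *Vcam1* goes from 0.0125 to 0.121 and 0.0294 and *Il18bp* lies between 0.0235 and 0.0588, with an open triangle at the limit that 0 UMIs allow.

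The rare *Spic* cells of the control libraries had more *Hmox1* than the cells without it in dpi4 macrophages and dpi2 monocytes, and less clearly in dpi2 macrophages. In control dpi4 macrophages with 0, 1, 2 and at least 3 *Spic* UMIs (2787, 136, 15 and 5 cells), *Hmox1* was at 1.89, 6.71, 14.9 and 17.4 UMIs per 5000, *Slc40a1* at 0.266, 1.35, 4.67 and 3.20, and *Vcam1* at 0.120, 0.309, 0.400 and 1.20. Those cells held *Lyz2* at 93.2, 98.1, 78.1 and 89.8. In control dpi2 monocytes (2401, 25, 7 and 10 cells) *Hmox1* was at 1.54, 10.3, 14.6 and 10.1 and *Lyz2* at 70.5, 46.0, 75.6 and 60. In control dpi2 macrophages with 0, 1 and 2 *Spic* UMIs (1842, 20 and 3 cells) *Hmox1* was at 3.20, 5.2 and 7.33 and *Lyz2* was lower with *Spic*, at 39.5, 29.5 and 25.3.

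The genes whose counts went most closely with each member over single macrophages were ranked by the smallest Pearson r over the libraries with at least 50 positive cells, as a description. For *Spic*, over 3 libraries and 6653 genes, they were *Slc40a1* (smallest r 0.204), *Hmox1* (0.165), *Slc48a1*, which encodes a heme transporter (0.129), *Igf1* (0.098) and *Clec4n* (0.091). For *Vcam1*, over 2 libraries and 6994 genes, they were *Gdf15*, *Aif1*, *Nfkbia*, *Cd38* and *Cd83* (0.135 to 0.116), with *Spic* 6th at 0.113. For *Il18bp*, over 3 libraries and 6669 genes, they were *B2m*, *Sepp1*, *Itm2b*, *Ms4a7* and *H2-D1* (0.130 to 0.108). Between members, r was 0.239 for *Spic* and *Vcam1*, 0.242 for *Spic* and *Il18bp* and 0.192 for *Vcam1* and *Il18bp* in the KO dpi4 library. In the same order it was 0.113, 0.033 and 0.032 in control dpi4, 0.049, 0.094 and 0.014 in KO dpi2, and 0.064, 0.004 and 0.038 in control dpi2, all weak, over cells that share a library and base depth.

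A cluster apart carried all 3 at high levels, the highest of any cluster in the KO dpi4 library. Cluster 16, present at dpi4 with 238 control and 50 KO cells, was led by the contractile genes *Mylpf*, *Acta1* and *Myl1*, with *Acta1* at 271 and 179 CPM, but also held *C1qa* at 3125 and 3217 CPM and *Ptprc* at 698 and 669 CPM, and it was left out of the macrophages. *Spic* was at 21.3 and 449 CPM there, *Vcam1* at 74.7 and 316 CPM and *Il18bp* at 117 and 581 CPM. In the thinned KO cells the 3 were found in 46.0% (31.8 to 60.7), 34.0% (21.2 to 48.8) and 50% (35.5 to 64.5). The part of the muscle transcripts in these levels was not tested.

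The genes around *Spic* in iron handling moved with it in part. Of the 20 listed genes of heme and iron handling, 17 had enough UMIs in macrophages at dpi2, of which 5 were past the size rule upwards in the KO and 0 downwards, with a median log2 ratio of 0.63 against -0.02 over all genes. At dpi4 it was 4 up and 1 down (*Steap4*, a metalloreductase, from 52 and 15 UMIs) of 19, with a median of 0.29 against 0.02. Over all genes 2.25% were past the rule upwards and 2.14% downwards at dpi2, and 0.984% and 1.40% at dpi4. The counts of the next lists in macrophages stand beside the same shares. *Slc40a1* was at 3.47, 88.4, 71.0 and 782 CPM over the libraries in the order above, ratios of 25.5 (21.4 to 30.6) and 11 (10.7 to 11.4). *Hmox1* was 15.5 and 15 times higher in the KO, *Slc48a1* 3.74 and 4.6 times, and *Fth1*, a ferritin subunit, 2.16 and 2.76 times. *Cd163*, the receptor for hemoglobin bound to haptoglobin, was past the rule at dpi2 only (2.99 and 1.04). *Tfrc*, the transferrin receptor, was at 1.55 and 1.95, and *Blvrb*, which reduces biliverdin, at 1.32 and 1.25.

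*Spic* was not accompanied by the whole set of red pulp macrophage genes. Of 11 listed, 10 were scored, 3 of them up at dpi2 (median log2 0.64) and 4 at dpi4 (0.55). *Treml4*, a receptor of the TREM family, was 7.08 (4.92 to 10.5) and 2.80 (2.43 to 3.23) times higher in the KO, *Epb41l3*, which encodes a membrane skeleton protein, 4.17 and 4.09 times, and *Marco*, a scavenger receptor, 11.4 times at dpi4 after 393 UMIs against 2 at dpi2. *Fcna*, which encodes a ficolin, was up at dpi4 (2.54). *Adgre1*, which encodes F4/80, was at 1.14 and 1.07, *Mrc1* at 1.56 and 1.09 and *Mertk* at 1.56 and 1.47. *Axl* and *Cd5l* were at 0.578 and 0.599 at dpi2 and at 1.45 and 1.43 at dpi4.

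Among the transcription factors listed beside *Spic*, *Spi1*, which encodes its relative PU.1, was at 0.982 and 0.816, and *Nfe2l2*, which encodes the activator NRF2, at 1.27 and 0.817. Of 9 scored, only *Maff* was past the rule, at dpi2 (2.48), with medians of 0.20 and 0.03. Of the 8 antioxidant genes, 4 were up at dpi2 (*Gclc*, *Gclm*, *Gsr* and *Slc7a11*, median 1.0) and 2 at dpi4 (*Gclc* and *Gclm*, median 0.74). *Gclm*, which encodes the modifier subunit of glutamate-cysteine ligase, was 4.57 and 3.95 times higher. None of the 3 members is on that list.

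The partners of *Vcam1* were too few to read a count from. Of the 6 scored genes for VCAM1 receptors and other adhesion molecules, 0 were past the rule at either day. Their medians were 0.05 and -0.14. Among all scored genes 2.25% were past it upwards and 2.14% downwards at dpi2, and 0.984% and 1.40% at dpi4. Nothing is read from the count of 0. *Itga4* and *Itgb1*, which encode the integrin pair that binds VCAM1, were at 1.10 and 0.975 at dpi2 and at 0.915 and 0.960 at dpi4. *Icam1*, another ligand for leukocyte integrins, was at 1.51 and 0.805. Between the days *Itga4* and *Itga9* were past the rule upwards in the control (2.69 and 2.74 times higher at dpi4) and in the KO (2.24 and 2.83 times), with *Icam1* in the control alone (2.40), and *Itgb7* was past it downwards in both (0.343 and 0.493). Between the days 9.81% and 8.84% of all scored genes were past it upwards and 6.06% and 4.89% downwards, control before KO. *Itga4* was present on possible partner cells too, at 228 to 404 CPM in T or NK cells and 223 and 166 CPM in dpi2 monocytes.

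The transcript of the ligand of IL-18BP was higher at dpi4 than at dpi2 in macrophages, as *Il18bp* was, over a smaller range. Between the genotypes it was higher in the KO at dpi4, and the interval of its dpi2 ratio held 1. *Il18* in macrophages was at 21.4, 19.5, 36.4 and 45.5 CPM, ratios of 0.909 (0.816 to 1.01) and 1.25 (1.18 to 1.33), and in dpi2 monocytes at 104 and 60.8 CPM. The receptor chains *Il18r1* and *Il18rap* were highest in T or NK cells, at 163 to 369 and 166 to 217 CPM, with *Il18rap* also in neutrophils at 79.0 to 206 CPM. Of the 11 scored genes of the IL-18 and IL-1 system, 5 were up at dpi2 (*Il18rap*, *Il1b*, *Il1r2*, *Il1rn* and *Nlrp3*, median 0.20) and 0 at dpi4 (median -0.31). Neutrophil markers moved with the dpi2 values: all 7 were found in macrophages of both dpi2 libraries, summing to 101 CPM in the control and 257 in the KO, and neutrophils were 11% and 22.4% of kept cells. Cluster 11, closest to neutrophils but shallow and left without a name, was a further 1.54% and 13.2%. *Il1r2*, a leading gene of the neutrophil cluster, was at 2.5 and 7.50 CPM in macrophages and at 1381 and 1721 CPM in neutrophils. The part of neutrophil RNA in these differences was not tested. *Il1b* was at 4.24 (4.10 to 4.38) and 0.586 (0.573 to 0.599), so *Il18bp* and *Il1b* took opposite orders on both days.

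The interferon γ response is of interest because interferon γ is known to induce *Il18bp*. In dpi2 monocytes 6 of 9 listed genes were past the rule downwards (among them *Cxcl10*, *Cxcl9* and *Gbp2*), where 2.65% of all genes were. Their median log2 was -1.10. These monocytes came from different clusters in the libraries: cluster 1, with *Ifi205* and *Mx1* among its leading genes, held 1450 of the control and 205 of the KO cells at dpi2, so the class-wide values compare different mixtures. In dpi2 macrophages 1 of 8 scored was (*Cxcl10*, 0.422), with a median of -0.84, and *Irgm1* was at 0.563. At dpi4 the median was -0.04 and 1 of 9 was up (*Cxcl9*, 2.57). *Ifng* itself was counted mainly in T or NK cells, with 47 and 8 UMIs at dpi2 (97.3 and 43.4 CPM) and 414 and 47 at dpi4 (773 and 58.8 CPM), control before KO. The part of these genes in the *Il18bp* difference was not tested.

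In dpi2 monocytes, where *Spic* was higher and *Vcam1* was not, the lists gave 4 of 17 heme and iron genes up (*Cd163*, *Hmox1*, *Slc40a1* and *Slc48a1*, median 0.65), 0 of 7 red pulp genes up and 2 down (*Axl* and *Cd5l*, median 0.17), 0 of 9 transcription factors (0.11), 2 of 7 antioxidant genes up (*Gclm* and *Slc7a11*, 0.69), 0 of 6 adhesion genes (-0.14) and 3 of 10 genes of the IL-18 and IL-1 system up (*Il1b*, *Il1r2* and *Nlrp3*, 0.11). The 7 neutrophil markers summed to 212 CPM in the control and 427 CPM in the KO monocytes, and sub-cluster 13, led by *S100a8* and *S100a9*, was 1.22% and 1.63% of them, whose part in the last count was not tested. The median over all genes was -0.01, with 1.77% of them past the rule upwards and 2.65% downwards.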

How the data were processed

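RNA of CD45+ cells was counted as unique molecular identifiers (UMIs) in 1 library per genotype and day. The deposited counts are raw UMI counts per gene and barcode, made by the authors with Cell Ranger 6.1.2 on mm10, with barcodes of at least 500 UMIs listed. The labels name the 3′ kit of another version than the study's methods do. The cell filters, doublet calls and annotation of the study were not used here and were rebuilt.

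Cells with under 10% mitochondrial UMIs and at least 500 genes were kept, and the highest Scrublet scores were removed at 0.8% per 1000 cells. Counts were scaled to 10000 per cell, and 2000 variable genes without the members and lists, 30 components, 15 neighbours and Leiden resolution 1 (0.8 for sub-clusters) gave clusters (Python 3.11.15, scanpy 1.11.5, leidenalg 0.10.2), named from fixed markers. CPM carries exact Poisson intervals, ratios exact conditional binomial intervals (scipy 1.17.1) and shares Clopper-Pearson intervals. A count of 0 was read as allowing 3 counts. Shares were taken after thinning each cell to 2000 UMIs, or 5000 for co-detection, which left out shallower cells (31 to 84 macrophages per library at 2000). With 1 library per group no test was made, and depth limits precision only through counting.

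The named genes were the members, 7 lists of 80 genes, the 5 genes most like each member and the leading genes of clusters. Values of other genes, such as those of clusters 16 and 20, were chosen after they were seen. The members and lists were chosen with earlier results of these data known. *Flvcr1* of the iron list was not matched in the files. Class rebuilding, filters, doublets, scaling, weighting, thinning and the size rule were each varied. The scripts were tested on simulated data.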

Additional observations from a re-analysis of the deposited data

Results flagged for a closer look

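*Il18bp* in macrophages was picked out because its difference between the KO and control libraries had opposite directions on the 2 days. On dpi2 the log2 ratio of KO over control was -0.81 (-1.0 to -0.62), and on dpi4 it was 1.5 (1.44 to 1.55). With 1 library per genotype and day the difference between the days was not tested, and the intervals cover counting error only. The dpi2 value differed between sub-clusters, with ratios of 0.342 in sub-cluster 6 and 1.24 in sub-cluster 2.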

How the results depend on the processing

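No paired analysis was possible because each group was 1 library. The direction was kept in 202 of 204 alternatives of the member ratios, shares and co-detection. Exceptions were *Vcam1* in dpi2 monocytes, near a ratio of 1, and *Il18bp* co-detection in KO dpi2 macrophages.

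Ratios are log2, KO over control unless days are named. Clustering each library by itself moved *Vcam1* at dpi2 from 1.27 to 1.60, and at dpi4 *Spic* from 4.04 to 4.17, *Vcam1* from 2.18 to 2.44 and *Il18bp* from 1.5 to 1.63. The ratios of dpi4 over dpi2 went to 2.29 for *Vcam1* and 1.96 for *Il18bp* in the control, and to 1.72, 3.13 and 4.33 for *Spic*, *Vcam1* and *Il18bp* in the KO. *Spic* in dpi2 monocytes went from 4.83 to 6.03. Pooling monocytes and macrophages gave *Spic* 4.92 at dpi2 (5.53 before), and for dpi4 over dpi2 1.85 in the control (3.0 before) and 0.97 in the KO (1.5 before), with 3.28 for *Vcam1* and 4.27 for *Il18bp* in the KO. The mean over cells gave *Vcam1* 1.61 and 2.46 at the 2 days, *Il18bp* 1.55 at dpi4 and 1.60 for the days in the control. A minimum of 200 genes gave *Il18bp* 1.57 at dpi4. Counting cluster 16 with the macrophages, chosen after seeing the data, gave *Vcam1* 2.03 at dpi4.

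Shares, as KO minus control in percentage points, moved with the depth of thinning. *Spic* at dpi2 was 13.3, against 7.84, 24.6 and 46.9 at 1000 UMIs, 5000 UMIs and without thinning, and at dpi4 29.4, against 18.4, 47.1 and 58.7. *Vcam1* was 0.727 at dpi2 (2.15 at 5000 UMIs, 6.25 unthinned) and 9.25 at dpi4 (6.71, 13.9 and 16.9). *Il18bp* was -2.19 at dpi2 (-4.36 and -5.62) and 14.3 at dpi4 (9.99, 21.4 and 18.6). Clustering by library gave 2.33 and 14.6 for *Vcam1* at dpi2 and dpi4, 33.0 for *Spic* and 16.7 for *Il18bp* at dpi4. A mitochondrial limit of 20% gave *Vcam1* 11.8 at dpi4, and pooling gave *Spic* 16.2 at dpi2.

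Co-detection is the share in cells with minus that in cells without *Spic*. For *Vcam1* it was 17.1 points in KO dpi4 macrophages (11.2 at 2000 UMIs, 22.7 unthinned) and 10.8 in control dpi4 (4.06 at 2000 UMIs). For *Il18bp* it was 18.3 in KO dpi4 (12.0, 30.7, and 23.3 with a minimum of 200 genes), 5.11 in control dpi4 (18.4 unthinned) and 3.31 in KO dpi2 (-0.272 with a minimum of 200 genes, 8.01 with each library clustered by itself). The cause was not tested.

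A size rule of 1.5-fold gave 584 genes higher and 663 lower in macrophages at dpi2, and 385 and 500 at dpi4. A minimum of 200 UMIs gave 157 and 126 at dpi2 and 47 lower at dpi4.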
